A study of Mus musculus with 12 samples.

Results

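The 9 genes described here are the core effector genes of cytotoxic lymphocytes. They are the granzymes Gzma, Gzmb and Gzmk, the pore protein gene Prf1, the granule gene Nkg7 and the cathepsin gene Ctsw. The others are the cytokine gene Ifng, the death ligand gene Fasl and the transcription factor gene Tbx21. The 9 genes and the gene lists used below were chosen by name, with earlier results of these data known. Each of the 9 was found by its mouse Ensembl identifier among the 30630 genes measured. All 9 passed the filter on low values that 19018 genes passed, at least 0.1 FPKM (fragments per kilobase of transcript, scaled to the library's mapped fragments) in at least 6 tumors. RNA was measured in 12 tumors grown from CT-26, a colon carcinoma line of BALB/c mice, of which 6 were from a control group and 6 from a swimming group. Male BALB/c mice bought at 4 to 6 weeks of age received the cells in Matrigel under the skin of the right flank, and each group held 10 mice. Swimming mice trained over 3 weeks, with 2 daily sessions of at most 30 min and 6 training days per week, and control mice carried the same tumors without swimming. The sequenced tumors were picked at random within each group, but neither the methods nor the labels state that each came from a separate mouse, so p-values measure the spread between these samples. No gene was deleted or overexpressed in either group, and a subcutaneous tumor of 1 transplanted line is not a tumor of the bowel.

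Cytotoxic T cells and natural killer (NK) cells kill target cells along 2 routes. In the granule route, perforin opens the target membrane and granzymes, which are serine proteases, enter and cleave proteins inside. In the death receptor route, Fas ligand on the lymphocyte engages Fas on the target. The same lymphocytes secrete interferon gamma, which raises antigen processing and presentation in the cells around them. T-bet, the product of Tbx21, is the transcription factor that drives much of this program in T and NK cells.

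Each tumor was sequenced as bulk tissue, so fewer cells of a type and less RNA per cell cannot be told apart. The labels name the cell type as CT-26 cells, but the tissue also held leukocytes, and Ptprc, the pan-leukocyte marker CD45, was at 3.05 to 6.27 FPKM. Krt8 and Krt18, keratins of simple epithelia, were detected in every tumor at 1.86 to 129 and 5.89 to 14.8 FPKM, whereas Epcam, an epithelial adhesion gene, stayed at or below 0.177 FPKM. The summed FPKM ran from 380139 to 407109 per tumor, and correlations of log2 values between tumors ran from 0.975 to 0.991. Read totals are not given, but the step between low values put the depth of control 2 at 0.694 of the deepest tumor, and the other tumors at 0.871 or more. No interval for counting error was computed.

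The promoters of 6 of these genes are shown because their levels are compared below as a group (Gzma, Gzmb and Prf1) or carry the smallest p-values (Gzmk, Ifng and Nkg7). Each run is the 250 bases before the start site in the RefSeq annotation of GRCm38.p6, the C57BL/6J reference and not BALB/c sequence, written 5′ to 3′ on the gene's strand. Capitals mark matches on either strand to 5 short patterns. Searched were GGTGTGA, the element that T-box factors such as T-bet bind, and TGANTCA, the site of AP-1 factors. Also searched were TTCNNNGAA, the interferon-activated STAT site, then TGTGGT, the core bound by Runx factors, and the TATA box, whose letters are TATAAA.
Gzma, chr13:113100982-113101231, minus strand: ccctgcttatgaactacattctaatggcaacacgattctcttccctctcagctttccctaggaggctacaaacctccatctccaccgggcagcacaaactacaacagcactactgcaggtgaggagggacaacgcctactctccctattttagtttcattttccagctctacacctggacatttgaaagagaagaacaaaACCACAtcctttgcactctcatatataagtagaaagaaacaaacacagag
Gzmb, chr14:56262335-56262584, minus strand: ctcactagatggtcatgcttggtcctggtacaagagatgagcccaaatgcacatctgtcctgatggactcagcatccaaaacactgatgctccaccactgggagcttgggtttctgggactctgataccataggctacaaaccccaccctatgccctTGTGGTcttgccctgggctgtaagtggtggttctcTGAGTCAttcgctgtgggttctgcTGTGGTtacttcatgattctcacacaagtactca
Prf1, chr10:61297586-61297835, plus strand: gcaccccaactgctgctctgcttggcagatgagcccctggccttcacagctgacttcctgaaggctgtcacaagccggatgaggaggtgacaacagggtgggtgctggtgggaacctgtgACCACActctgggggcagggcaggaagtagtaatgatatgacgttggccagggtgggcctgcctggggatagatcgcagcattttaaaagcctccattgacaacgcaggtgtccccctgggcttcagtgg
Gzmk, chr13:113180966-113181215, minus strand: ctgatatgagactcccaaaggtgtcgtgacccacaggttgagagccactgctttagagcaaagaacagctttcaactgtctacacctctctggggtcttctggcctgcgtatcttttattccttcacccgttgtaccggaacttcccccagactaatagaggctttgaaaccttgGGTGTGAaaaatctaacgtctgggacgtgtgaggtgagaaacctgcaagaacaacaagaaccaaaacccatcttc
Ifng, chr10:118440796-118441045, plus strand: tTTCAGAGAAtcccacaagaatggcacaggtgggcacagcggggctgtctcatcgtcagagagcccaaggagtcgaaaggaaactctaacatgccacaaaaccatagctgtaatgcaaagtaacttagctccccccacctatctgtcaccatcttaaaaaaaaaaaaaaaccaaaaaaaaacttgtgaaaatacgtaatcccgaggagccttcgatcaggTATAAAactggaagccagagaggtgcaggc
Nkg7, chr7:43436888-43437137, plus strand: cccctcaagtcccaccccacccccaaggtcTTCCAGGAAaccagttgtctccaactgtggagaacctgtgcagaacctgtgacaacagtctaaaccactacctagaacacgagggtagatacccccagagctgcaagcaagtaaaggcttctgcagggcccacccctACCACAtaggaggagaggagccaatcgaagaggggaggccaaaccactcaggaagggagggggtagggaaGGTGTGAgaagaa

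The RefSeq promoters held 8 of the 9 genes, and Ctsw is named only. GGTGTGA stood in the windows of Gzmk, 75 to 69 bases before the RefSeq start, and of Nkg7, 13 to 7 bases before it. Of 32851 promoters of the same length, 3.33% held it. TTCNNNGAA was found in Nkg7 and Ifng (7.02% of promoters), and TGANTCA in Gzmb (6.75%). TGTGGT was found in Gzma, Gzmb, Prf1 and Nkg7 (14.05% of promoters), with 2 matches in Gzmb, and TATAAA in Ifng at 30 to 25 bases before the start (12.4%). None of these matches overlapped another, and the windows of Fasl and Tbx21 held none of the 5 patterns. A match is a run of letters in the reference and says nothing of what binds there.

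In the GENCODE M21 annotation of GRCm38 all 9 are protein coding and lie on 7 chromosomes. Gzma (chr13:113093825-113100981) and Gzmk (chr13:113171608-113225908) are on the minus strand of the same chromosome. The annotated span of Gzmk is 54301 bases, far longer than its RefSeq form, whose start lies inside it, and Esm1, a gene of the opposite strand at 183 to 373 FPKM, lies within that span without sharing an exon. Gzmb is at chr14:56258838-56262260 (minus), Prf1 at chr10:61297833-61304680 (plus), Nkg7 at chr7:43437073-43438249 (plus) and Ifng at chr10:118441046-118445892 (plus). The RefSeq window of Nkg7 ends at 43437137, past this GENCODE start, so its GGTGTGA match lies inside the annotated span. For Gzmb the RefSeq start lies outside the GENCODE span, upstream of it. Fasl is at chr1:161780689-161788495, Tbx21 at chr11:97098071-97115331 and Ctsw at chr19:5465043-5468507, all on the minus strand. Exons of Ctsw overlap exons of Fibp on the opposite strand, and since counting by strand is not stated, reads of the pair may not have been told apart. Fibp was at 5.41 to 8.45 FPKM and differed by -0.03 on the log2 scale between the groups. An exon of Ifng overlaps Gm49751 on the same strand, which stayed between 0.0106 and 0.0922 FPKM.

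The order of the levels per length over the 12 tumors was Gzmb, Gzma, Prf1, Nkg7, Ctsw, Ifng, Tbx21, Fasl and Gzmk. Gzmb had a mean of 14.9 ± 6.33 FPKM (SD, n = 12) and Gzma, Prf1 and Nkg7 had means of 9.98 ± 4.07, 9.62 ± 4.05 and 5.55 ± 2.21 FPKM. Ctsw was at 2.46 ± 0.765 FPKM, and Ifng, Tbx21, Fasl and Gzmk were at 0.711 ± 0.545, 0.584 ± 0.326, 0.572 ± 0.201 and 0.293 ± 0.184 FPKM. The neighbours Gzmb and Gzma, Gzma and Prf1, Ifng and Tbx21, and Tbx21 and Fasl differed in mean by less than the larger of their SDs. The gaps from Prf1 to Nkg7, Nkg7 to Ctsw, Ctsw to Ifng and Fasl to Gzmk were larger than that. Nkg7 was above Ctsw, Ctsw above Ifng and Fasl above Gzmk in 12 of 12 tumors. Gzmb and Gzma stood at the top of the order and Gzmk, the third granzyme, at the bottom.

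The question put to each gene was whether its RNA level differed between tumors of swimming and control mice. Ifng and Gzmk had the smallest p-values of the 9, with swimming means 2.87 and 2.50 times the control means, but neither passed the test across all genes. Nkg7, Tbx21 and Ctsw had higher means in swimming tumors without reaching an unadjusted p of 0.05. Gzma, Gzmb, Fasl and Prf1 had mean ratios between 0.881 and 1.16. The 12 values of each gene are drawn in the plot of FPKM by group.

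**Figure D1:**
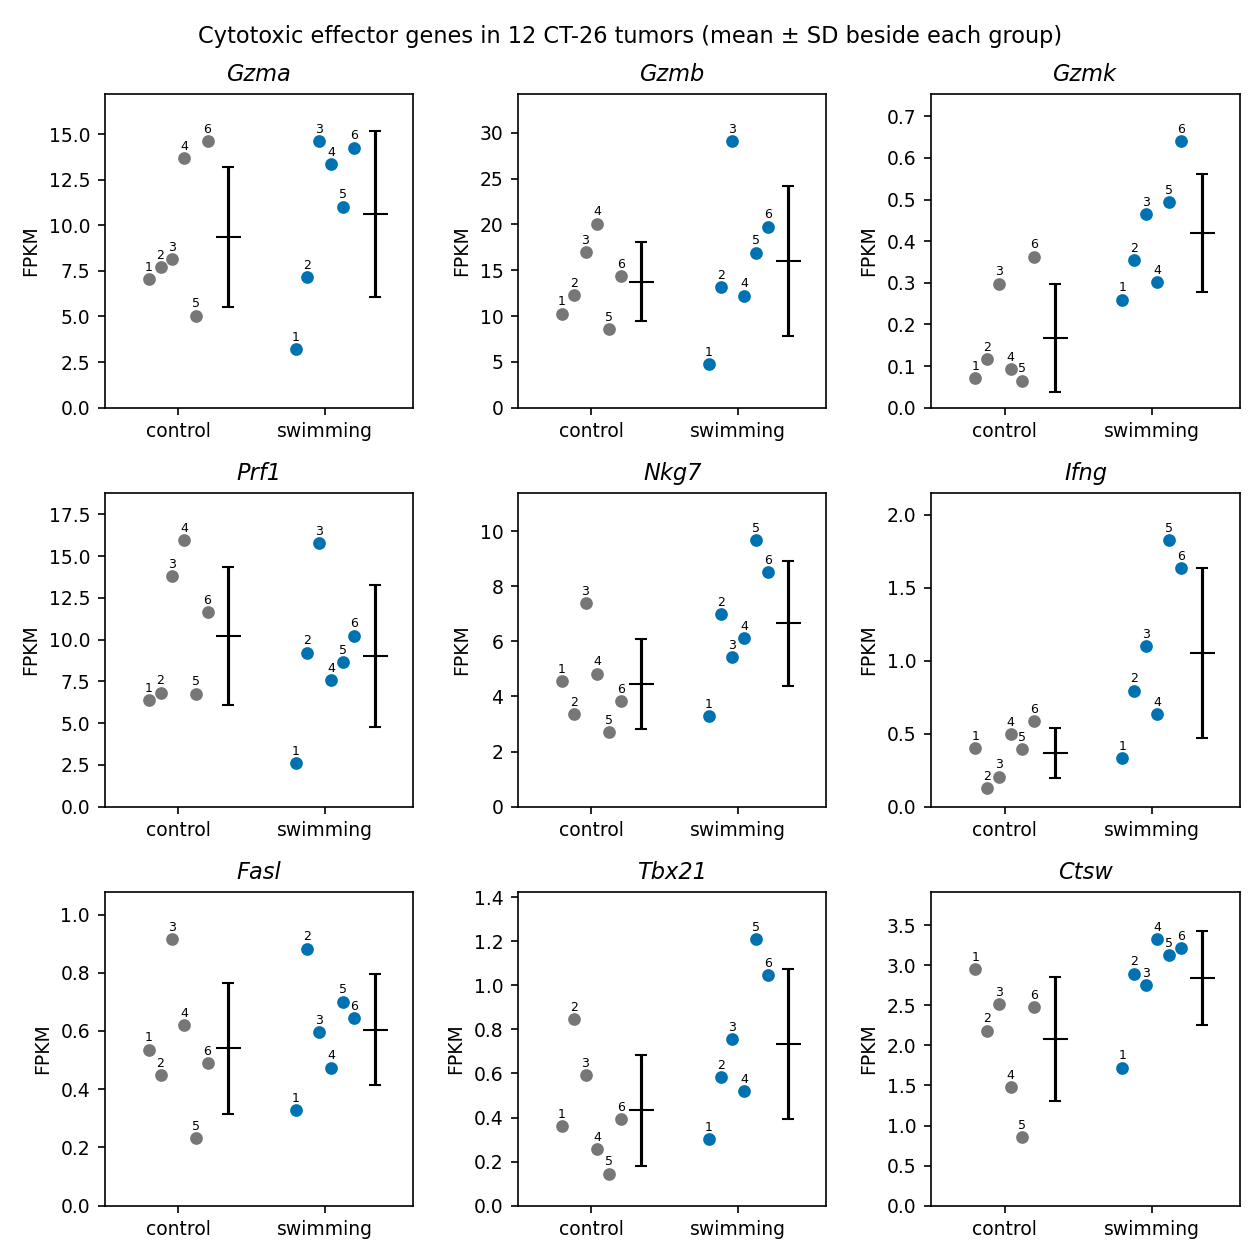
FPKM of the 9 genes in each control and swimming tumor, 1 panel per gene with its own linear axis from 0, points for single tumors and the mean ± SD (n = 6) beside each group. For Ifng, 5 of 6 swimming tumors lie above all control tumors, and for Prf1 none does.

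Among the granzymes, Gzmk, a trypsin-like granzyme found mainly in T cells, was lowest in level. Its control tumors ran from 0.0649 through a median of 0.104 to 0.363 FPKM, and its swimming tumors from 0.260 through 0.410 to 0.640 FPKM. All 6 swimming tumors were above the control median and 3 above every control tumor, while 4 control tumors were below every swimming tumor, so the groups overlapped only through control 3 and control 6. The log2 fold change of FPKM + 1, swimming minus control, was 0.28 ± 0.083 (SE; 95% interval 0.10 to 0.46), with an exact permutation p = 0.0173 and a limma adjusted p = 0.889. That scale understates the change of a gene at such low values, and with a pseudocount of 0.01 the fold change was 1.51. In every one of the 12 fits without 1 tumor its unadjusted p stayed below 0.05, with fold changes of 0.24 to 0.33.

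Gzma, a trypsin-like granzyme abundant in NK cells, ran from 5.05 through a median of 7.91 to 14.6 FPKM in control tumors and from 3.21 through 12.2 to 14.6 FPKM in swimming tumors. The groups covered nearly the same range, and the lowest tumor of the 12 was swimming 1. Its fold change was 0.11 ± 0.33 (95% interval -0.59 to 0.82; exact permutation p = 0.788). Gzmb, the aspartate-cleaving granzyme that activates caspases in target cells, ran from 8.58 through 13.3 to 20.1 FPKM in control tumors and from 4.73 through 15.0 to 29.1 FPKM in swimming tumors. Both the lowest and the highest Gzmb value of the series came from the swimming group, swimming 1 and swimming 3. The fold change of Gzmb was 0.09 ± 0.33 (95% interval -0.62 to 0.80; exact permutation p = 0.842).

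Prf1, which encodes perforin, was the only one of the 9 with a lower mean in swimming tumors. Control tumors ran from 6.36 through 9.24 to 15.9 FPKM and swimming tumors from 2.62 through 8.94 to 15.8 FPKM. No swimming tumor was above the highest control tumor, and 2 of 6 were above the control median. Its fold change was -0.22 ± 0.33 (95% interval -0.92 to 0.49; exact permutation p = 0.587), and without swimming 1 it was 0.05. The intervals of Gzma, Gzmb and Prf1 share the range from -0.59, the lower end for Gzma, to 0.49, the upper end for Prf1.

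Nkg7, a membrane protein of cytotoxic granules needed for their release, ran from 2.71 through 4.19 to 7.38 FPKM in control tumors and from 3.28 through 6.54 to 9.66 FPKM in swimming tumors. Swimming tumors were above the control median in 5 of 6 cases, swimming 1 being the exception. The fold change was 0.48 ± 0.23 (95% interval -0.0036 to 0.97; exact permutation p = 0.0909). Ctsw, a cysteine protease of the cathepsin family made in NK and CD8 T cells, ran from 0.854 through 2.33 to 2.95 FPKM in control tumors and from 1.72 through 3.01 to 3.32 FPKM in swimming tumors. Again swimming 1 was the 1 swimming tumor below the control median. The fold change of Ctsw was 0.35 ± 0.18 (95% interval -0.04 to 0.73; exact permutation p = 0.104).

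Ifng, the interferon gamma gene, ran from 0.125 through 0.398 to 0.584 FPKM in control tumors and from 0.334 through 0.948 to 1.83 FPKM in swimming tumors. The 5 swimming tumors other than swimming 1 were above all control tumors, whereas none of the other 8 genes had more than 3 such tumors. The fold change was 0.55 ± 0.17 (95% interval 0.18 to 0.91), with an exact permutation p = 0.0173 and a limma adjusted p = 0.889. Its unadjusted p stayed below 0.05 in each of the 12 fits without 1 tumor, with fold changes of 0.45 to 0.66. Fasl, the Fas ligand gene, ran from 0.233 through 0.513 to 0.914 FPKM in control tumors and from 0.328 through 0.620 to 0.883 FPKM in swimming tumors. The swimming values lay between the lowest and the highest control value, and the fold change was 0.06 ± 0.11 (95% interval -0.16 to 0.29; exact permutation p = 0.584).

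Tbx21, the T-bet gene, ran from 0.145 through 0.377 to 0.845 FPKM in control tumors and from 0.302 through 0.669 to 1.21 FPKM in swimming tumors. Swimming tumors were above the control median in 5 of 6 cases, and swimming 5 and swimming 6 above every control tumor. The fold change was 0.27 ± 0.14 (95% interval -0.03 to 0.57; exact permutation p = 0.113).

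In all, 0 of the 9 genes passed limma at an adjusted p of 0.05, as did 0 of the 19018 genes tested (0.0%), where the smallest adjusted p was 0.204. The exact permutation test adjusted over all genes also called 0, with a smallest adjusted p of 0.925, and at an unadjusted p below 0.05 it counted 969 genes. The smallest p that its 924 divisions of 12 tumors can give is 0.00216. At an unadjusted p below 0.05 limma counted 2 of the 9 genes higher in swimming tumors (Gzmk and Ifng), against 591 of all genes (3.11%), and 0 of the 9 lower, against 467 (2.46%). Swimming means of log2 values were higher for 8 of the 9 genes, against 51.7% of all genes, and the median fold change was 0.27 against 0.0039 over all genes. For 0 of the 9 did the groups not overlap, which held for 28 genes in all (0.147%). Without swimming 1, 5 of the 9 had an unadjusted p below 0.05, Nkg7, Tbx21 and Ctsw joining Gzmk and Ifng, and their adjusted p-values were 0.204 to 0.571. In that fit 861 of all genes (4.53%) were higher at an unadjusted p below 0.05.

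**Figure D2:**
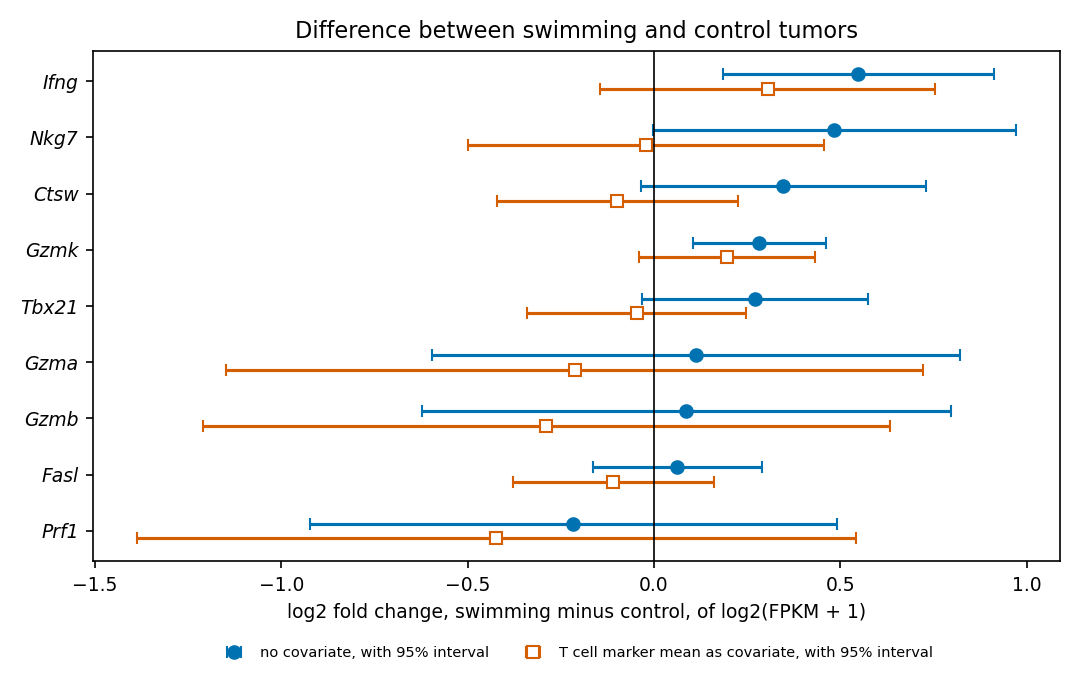
Log2 fold change of FPKM + 1, swimming minus control, for each of the 9 genes (x axis), without a covariate (filled circles) and with the mean of the T cell markers as a covariate (open squares), bars giving 95% intervals. Without the covariate only the intervals of Gzmk and Ifng lie above 0, and with it all 9 intervals include 0.

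Single tumors moved many of the 9 genes at once. Swimming 1 was the lowest of its group for all 9 genes, and control 5 the lowest of its group for 7, the exceptions being Prf1 and Ifng. Swimming 3 was the highest of its group for Gzma, Gzmb and Prf1. Swimming 5 was the highest for Nkg7, Ifng and Tbx21. The T cell markers summed to 20.2 FPKM in swimming 1, the lowest of its group, and to 51.1 FPKM in swimming 5, the highest. The relative depth of swimming 1 was 0.973, the highest of its group.

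**Figure D3:**
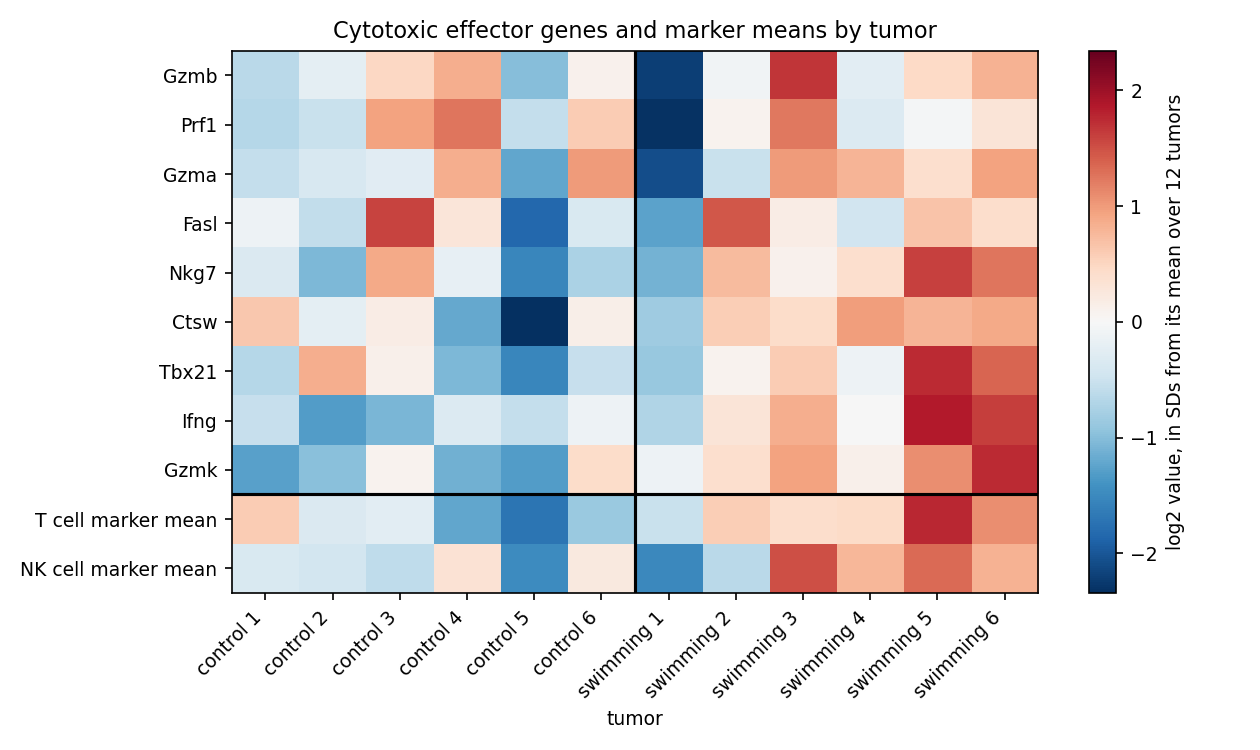
Log2(FPKM + 1) of the 9 genes and the mean log2 levels of T cell and NK cell markers (rows) in the 12 tumors (columns), as SDs from the row's mean over all tumors, blue below and red above it. The columns of swimming 1 and control 5 are blue in most rows. Among swimming tumors, swimming 3 is highest for Gzma, Gzmb and Prf1 and swimming 5 for Nkg7, Ifng and Tbx21. Both are red in other rows as well.

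Across the 12 tumors, the 9 genes were correlated with each other to unequal degrees. The 36 pairs had a median Pearson r of 0.523, and 11 had a permutation p below 0.05 after Benjamini-Hochberg adjustment over the 36. Gzmb and Prf1, granzyme B and the pore it enters with, had the highest r, 0.924 (Spearman rho 0.930; adjusted permutation p = 0.00252 and 0.0036), with 0.931 within the control and 0.980 within the swimming group. Without swimming 1 and swimming 3, the tumors farthest from the Gzmb median, r was 0.807. Gzma and Gzmb had r = 0.855 (rho 0.825; adjusted permutation p = 0.0072 and 0.0193), with 0.788 and 0.890 within the groups and 0.621 without swimming 1 and control 5. The third pair of these abundant genes, Gzma and Prf1, had r = 0.789 (rho 0.804; adjusted permutation p = 0.0162 and 0.0225), with 0.748 and 0.864 within the groups, and 0.524 without swimming 1 and control 5.

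Nkg7 and Fasl had r = 0.814 (rho 0.867; adjusted permutation p = 0.0131 and 0.0106), with 0.980 within control and 0.755 within swimming tumors and 0.775 without swimming 5 and control 5. Gzmk and Ifng, the pair with the smallest p-values between the groups, had r = 0.796 (rho 0.776; adjusted permutation p = 0.0155 and 0.0317) and 0.732 without swimming 6 and control 5. Within the control group their r was 0.117 and within the swimming group 0.918, so the pooled value did not hold within the control tumors. Ifng and Tbx21, the cytokine gene and a factor that activates it, had r = 0.640 (rho 0.455; adjusted permutation p = 0.071 and 0.20). That value joins -0.765 within the control group and 0.998 within the swimming group, each over 6 tumors, and it was 0.108 without swimming 5 and swimming 6. The difference between the groups in these correlations was not tested. The pair with the lowest r was Prf1 and Ctsw, 0.196.

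Each of the 9 genes was set against the mean log2 level of 18 T cell markers and of 5 measured NK cell markers (of 8 listed), none of them one of the 9, which made 18 relations with adjusted permutation p-values. Ctsw, Tbx21 and Nkg7 had the highest r with the T cell markers, 0.865, 0.812 and 0.806 (adjusted permutation p = 0.00108, 0.00594 and 0.00594), and their rho were 0.902, 0.713 and 0.769 (adjusted permutation p = 0.00324, 0.0412 and 0.0287). Ifng and Gzmk followed with r = 0.709 and 0.666 (adjusted permutation p = 0.0243 and 0.0421), while their rho of 0.622 and 0.594 missed the threshold after adjustment (0.0795 and 0.0841). Prf1 was at r = 0.0277, Gzma at 0.299 and Gzmb at 0.321, with adjusted permutation p = 0.932, 0.363 and 0.346. For Ifng the r was -0.349 within the control and 0.923 within the swimming group, and for Gzmk 0.0533 and 0.724. For Ctsw it was 0.886 and 0.771, for Tbx21 0.544 and 0.942 and for Nkg7 0.464 and 0.968. Without control 5 and swimming 5, the tumors farthest from the median of the T cell mean, r was 0.859 for Ctsw and 0.501 to 0.623 for the other 4.

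Gzma and Gzmb had the highest r with the NK cell markers, 0.885 and 0.803 (adjusted permutation p = 0.00117 and 0.00594), with rho of 0.832 and 0.699 (adjusted permutation p = 0.0122 and 0.0412). Within the control and swimming groups r was 0.937 and 0.932 for Gzma and 0.745 and 0.874 for Gzmb. Without swimming 3 and swimming 1 they were 0.849 and 0.645. Ifng had r = 0.729 with the NK cell markers (adjusted permutation p = 0.0215; rho 0.734, 0.0397), and it was 0.713 without those 2 tumors. Tbx21 and Ctsw had r = 0.643 and 0.630 (adjusted permutation p = 0.0455 for both), with rho that missed the threshold. The r of Prf1 was 0.596 and fell to 0.235 without those 2 tumors, and Nkg7, Gzmk and Fasl had 0.624, 0.615 and 0.381. For Prf1, r was 0.603 within the control and 0.805 within the swimming group. Ifng had 0.400 and 0.755 within the groups, Tbx21 0.175 and 0.764, and Ctsw 0.489 and 0.753. Whether a gene's r with one marker set differs from its r with the other was not tested, and the NK cell markers were low, summing to 0.915 to 3.51 FPKM.

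**Figure D4:**
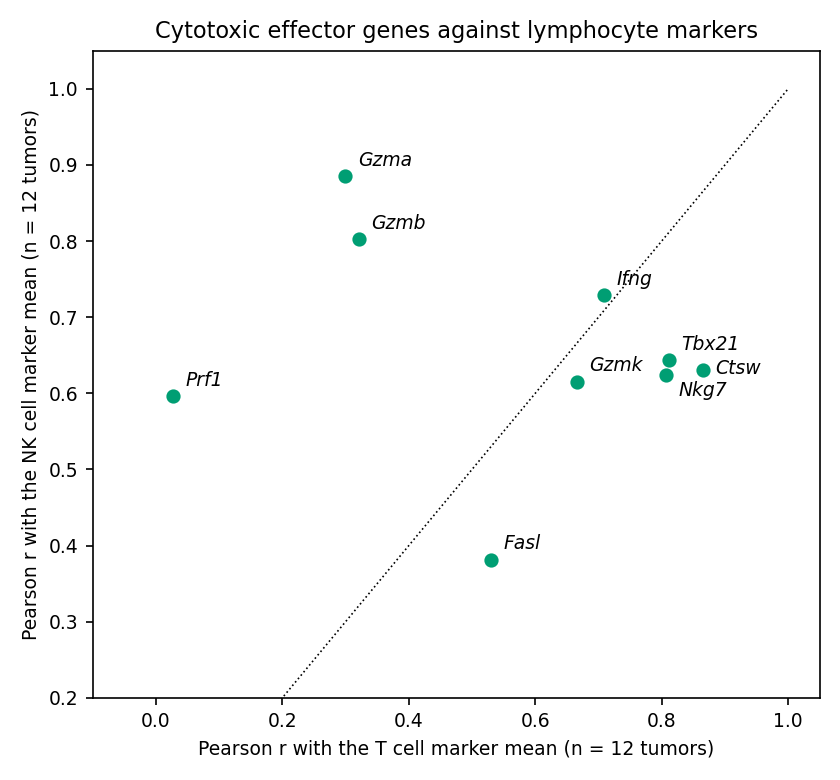
Pearson r over 12 tumors of each of the 9 genes with the T cell marker mean (x axis) and with the NK cell marker mean (y axis), all on the log2(FPKM + 1) scale, 1 point per gene, with a dotted line where both are equal. Gzma, Gzmb and Prf1 lie far to the left at 0.0277 to 0.321 on the x axis, and Ctsw, Tbx21 and Nkg7 at the right at 0.806 to 0.865. For Gzma, Gzmb and Prf1 the r on the x axis was -0.256 to -0.0323 within the control and 0.561 to 0.635 within the swimming group.

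The T cell markers moved with the groups. Of 18 tested, 12 were higher in swimming tumors at an unadjusted p below 0.05 and 0 lower, with a median fold change of 0.38, and 0 passed the adjusted test. Their summed level was 9.50 to 31.6 FPKM in control and 20.2 to 51.1 FPKM in swimming tumors, and 0 of them were at 0 in all tumors. Cd5, Cd3d, Cd3g and Cd2 had the smallest p-values of the list, with fold changes of 0.41, 0.48, 0.43 and 0.54, and its Cd8a and Cd8b1, the chains of CD8, had fold changes of 0.61 and 0.52. Leaving out control 5 or swimming 5 brought the count of 12 to 7, and with the mean level of pan-leukocyte markers as a covariate it was 3. Of the 5 NK cell markers 1, Klrb1f, had an unadjusted p below 0.05, with a fold change of 0.22. That count was 2 without swimming 1 and 0 without any other tumor except control 4 and swimming 2, and 0 with the T cell or the pan-leukocyte marker mean as a covariate. The median fold change of the NK cell markers was 0.05, with 4 above 0 and 1 below. Their sums were 0.969 to 2.39 FPKM in control and 0.915 to 3.51 FPKM in swimming tumors. At such low levels the scale of log2(FPKM + 1) understates changes, so this median does not show that NK cell markers moved less than T cell markers.

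With the T cell marker mean as a covariate, 0 of the 9 genes had an unadjusted limma p below 0.05 in either direction, and 255 of all genes (1.34%) were higher. Ifng then had a fold change of 0.30 ± 0.21 (95% interval -0.15 to 0.75) and Gzmk 0.20 ± 0.11 (95% interval -0.04 to 0.43), and those of Nkg7, Tbx21 and Ctsw were -0.02, -0.05 and -0.10. The T cell marker mean itself ran from 0.553 to 1.26 in control tumors and from 0.920 to 1.62 in swimming tumors. Group and covariate thus go together in this fit, and the standard error of Ifng rose from 0.17 to 0.21. A call lost with this covariate, here or in another list, does not give the cause of a difference, which was not tested. With the mean of 6 pan-leukocyte markers instead, Ifng had 0.32 ± 0.12 (95% interval 0.05 to 0.59) and Gzmk 0.26 ± 0.095 (95% interval 0.05 to 0.47). The pan-leukocyte markers summed to 93.7 to 134 FPKM in control and 100.2 to 152 FPKM in swimming tumors.

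The other genes of the pathway were read from lists by role, and the numbers in brackets after gene names are log2 fold changes of FPKM + 1, swimming minus control. Upstream of Ifng, 3 of 15 cytokine and receptor genes were higher in swimming tumors at an unadjusted p below 0.05 and 0 lower: Il27 (0.40), a subunit of interleukin 27, Il15 (0.32), a cytokine that maintains NK and CD8 T cells, and Il21r (0.35), the interleukin 21 receptor. The count was 5 without control 4 or swimming 1, and 1 with the T cell covariate. All 15 had fold changes above 0, with a median of 0.17. Of 14 transcription factors of cytotoxic cells other than Tbx21, 1 had an unadjusted p below 0.05, Stat4 (0.18), which relays interleukin 12 signals. That count was 3 without control 1, 2 without swimming 5, 0 without control 2, control 3, control 4, control 5, control 6 or swimming 6, and 0 higher with either covariate.

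Downstream of Ifng, of 28 interferon gamma induced genes, 23 were higher at an unadjusted p below 0.05 and 0 lower, all 28 had fold changes above 0, and the median was 0.78, against 3.11% higher and a median of 0.0039 over all genes. The guanylate binding protein genes Gbp7 (0.82) and Gbp3 (0.93), the immunoproteasome subunit gene Psmb8 (0.62) and the tryptophan-degrading enzyme gene Ido1 (0.85) had the smallest p-values of the list, each with an adjusted p = 0.889. The sums were 269.7 to 678 FPKM in control and 411 to 1519 FPKM in swimming tumors, lowest in control 5 and swimming 1 and highest among swimming tumors in swimming 5, which also had the highest Ifng. Abundant genes weigh most in such a sum, and Cd74 alone was at 38.5 FPKM in control 5 and 438 FPKM in swimming 5. The count of 23 became 13 without swimming 5, 14 without swimming 6, 4 with the pan-leukocyte covariate and 0 with the T cell covariate. Interferon gamma is not the sole inducer of these genes, and the part of other interferons was not tested.

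In the granule route, 5 of 6 other granzymes tested were lower in swimming tumors at an unadjusted p below 0.05, against 2.46% of all genes, and 0 passed the adjusted test, where the smallest limma adjusted p = 0.889. The list median was -1.57. They included Gzme (-1.52), Gzmg (-1.87), Gzmd (-1.69) and Gzmf (-1.61), close paralogs that can share reads, with exact permutation p = 0.0433, 0.0519, 0.0541 and 0.0541. The count of 5 became 3 without swimming 1 or without swimming 5 and 0 with the T cell covariate. The summed level of the 7 measured was 105 to 329 FPKM in control and 13.7 to 312 FPKM in swimming tumors. Swimming 3, the swimming tumor highest in Gzma, Gzmb and Prf1, was also the highest in this sum.

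Of 17 genes for granule storage and release, 1 was higher at an unadjusted p below 0.05, against 3.11% of all genes. It was Unc13d (0.20), which primes granules for fusion. Lower was 1, against 2.46% of all genes, Cd63 (-0.13), a membrane protein of lysosomes and granules, with means of 157 FPKM in control and 143 FPKM in swimming tumors. The count of 1 higher became 3 without swimming 1, 2 without control 2 and 0 without any other tumor except control 1. Of 8 genes for the processing of granule proteases, Ctsc (0.41), the peptidase that activates granzymes, was higher at an unadjusted p below 0.05 (exact permutation p = 0.0584), and Ctsl (-0.24), a lysosomal protease, lower. The count that held Ctsc became 0 without control 3, control 5, swimming 3, swimming 5 or swimming 6. With either covariate all counts of both lists were 0. Bulk RNA does not tell which cells carried the genes of these lists. Of 8 granzyme inhibitor genes, 0 had an unadjusted p below 0.05 by limma in either direction. In the target cell, the same held for 0 of 12 genes of the Fas death pathway, whose median fold change was -0.0055, and 1 of 11 granzyme substrate and pore genes, Hmgb2 (0.14), had an unadjusted p below 0.05. That count was 2 without swimming 1 and 0 without control 2, control 4, control 5, swimming 4 or swimming 5, and 0 with either covariate.

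Of 26 other genes of cytotoxic lymphocytes, 9 were higher at an unadjusted p below 0.05 and 0 lower, with a median of 0.26. Lag3 (0.48), an inhibitory receptor of activated T cells, Tnf (0.43), Tnfsf10 (0.47), the death ligand TRAIL, and Klrc1 (0.39), an inhibitory NK receptor, had the smallest p-values, each with an adjusted p = 0.889. The count was 5 without swimming 6, 1 with the T cell covariate and 2 with the pan-leukocyte covariate. Among the markers of other cells, 2 of 8 dendritic cell genes were higher, Xcr1 (0.31) and Flt3 (0.17), a count of 5 without control 1 and of 1 without any of the other control tumors, swimming 3, swimming 4, swimming 5 or swimming 6. With the T cell covariate it was 0. Macrophage, neutrophil, mast cell, B cell, plasmacytoid dendritic cell, fibroblast, endothelial and skeletal muscle markers counted 0 in both directions at an unadjusted limma p of 0.05. Of the 6 pan-leukocyte markers 1, Cd52 (0.39), had an unadjusted p below 0.05, a count of 3 without control 1 or swimming 1, 2 without control 4 and 0 without control 3, control 5, control 6, swimming 3, swimming 5 or swimming 6. Of 9 genes in the list for CT-26 cells 1, the proliferation marker Mki67 (0.30), did so, a count of 2 without swimming 2 and 0 with the T cell covariate. Bulk RNA does not tell which cells carried Mki67.

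**Figure D5:**
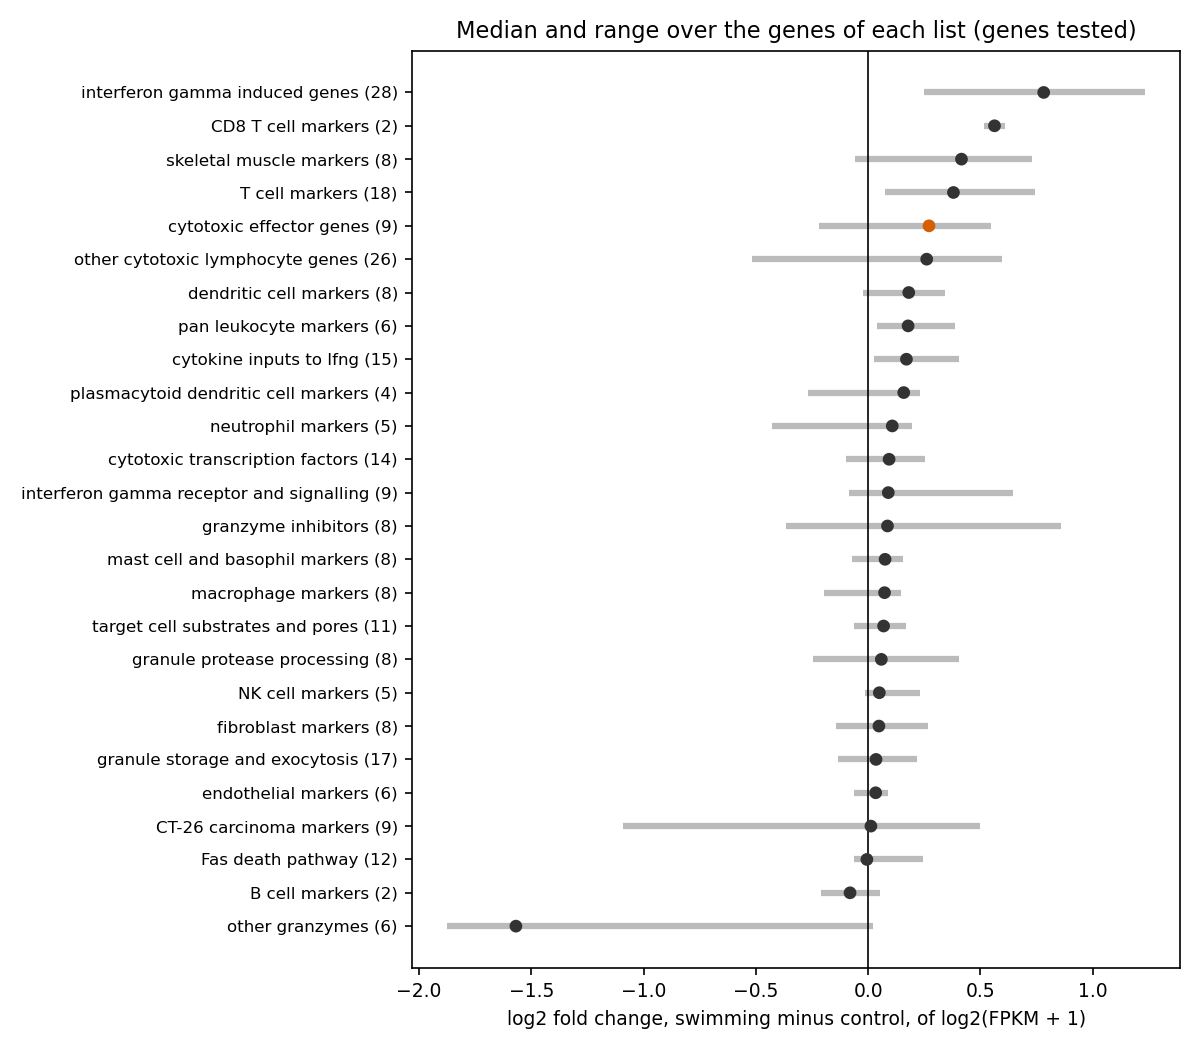
Median log2 fold change of FPKM + 1, swimming minus control (point), and the range over the tested genes (line) for the 9 cytotoxic effector genes (orange) and for each list of pathway genes or cell markers, with the number of genes tested in brackets. The interferon gamma induced genes have a median of 0.78 and the other granzymes one of -1.57, and the 9 genes lie between at 0.27. This scale understates changes of genes at low FPKM, such as Ifng, Tbx21, Fasl and Gzmk, so medians of lists at unlike levels are not directly comparable. Tbx21, which gives the 0.27, had 0.82 with a pseudocount of 0.01.

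The genes whose levels followed each of the 9 most closely over the 12 tumors were sought among 12784 genes with a mean of at least 1 FPKM. Ifng was closest to Psmb10 (r = 0.927), an immunoproteasome subunit gene, then Calhm6 (0.883) and Cd52 (0.882). Nkg7 was closest to Ido2 (0.938), Apol6 (0.925) and Tapbpl (0.912). Prf1 was closest to Glg1 (0.870), Gm22314 (0.856) and the granzyme gene Gzmc (0.832), and Gzmb to Daxx (0.895), Gm22314 (0.853) and Bst1 (0.849). Gzma was closest to Gm31544 (0.871), Wrb (0.857) and Eno3 (0.849). Gzmk was closest to Etv3 (0.910), Crem (0.899) and Insl6 (0.870), and Tbx21 to Setdb1 (0.933), Ptprj (0.899) and Tmed8 (0.896). Ctsw was closest to Pbx2 (0.947), Mrpl37 (0.937) and Tceal9 (0.937), and Fasl to Gm11127 (0.846), Bvht (0.829) and Tank (0.809). These are the highest of many correlations over the same libraries and carry no test.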

How the data were processed

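RNA was extracted from frozen tumors, rRNA was depleted, and libraries were made with a kit for which no strand marking is stated. The submitters' processing notes name HISAT2 2.0.5, StringTie 1.3.3 and limma, with the builds hg38 and GRCm38, and the deposited identifiers are mouse Ensembl genes. The authors deposited FPKM per gene and tumor, which keep no read totals. FPKM was taken as deposited and analysed as log2(FPKM + 1), keeping genes that reached 0.1 FPKM in 6 or more tumors, in limma 3.58.1 (R 4.3.3, lmFit and eBayes with trend) with Benjamini-Hochberg adjustment over 19018 genes. Correlations used 100000 permutations (Python 3.11.15, numpy 2.4.6). The fit was also run on simulated data, with changes set only in genes whose mean log2 value was at least 1. Gzmk, Ifng, Tbx21 and Fasl lie below that. Of 30630 identifiers, 30578 were in GENCODE M21 and 30542 had a symbol.

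The members and lists were chosen with earlier results of these data known. The 9 genes were described in full, and from each other list the genes with an unadjusted p below 0.05, at most the 4 with the smallest p, were named, with the 3 most similar genes to each of the 9. Krt8, Krt18, Epcam and Ptprc were named to check the label. Other genes of the lists had no row in the files used, among them Klra4, Klra8 and Klra9, and were not analysed here. The result of a further list is not reported here. Alternatives included other pseudocounts, filters and scalings, marker means as covariates, a replicate block and leaving out each tumor.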

Additional observations from a re-analysis of the deposited data

Results flagged for a closer look

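In swimming 1, Ctsw was at 1.72 FPKM, apart from the other 5 swimming tumors at 2.76 to 3.32 FPKM, with a gap to the nearest tumor of 0.645 of the group's range. In swimming 3, the summed level of the other granzymes (Gzmc to Gzmg, Gzmm and Gzmn) was 312 FPKM, apart from 13.7 to 113 FPKM in the other swimming tumors, with a gap of 0.666 of the range. Both gaps were above Dixon's 95% critical value for 6 samples. Of 32 groups of 6 tumors examined 2 were so marked, and chance alone would mark about 1.6.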

How the results depend on the processing

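None of the 9 genes passed an adjusted p of 0.05 under any alternative run, and Gzmk and Ifng kept fold changes above 0 under each that could be computed. Over all genes, 1 passed with sample weights and 0 to 3 without 1 tumor (3 without control 4, 2 without swimming 1), against 0. Genes higher at an unadjusted p below 0.05 numbered 391 at a filter of 1 FPKM and 255 with the T cell covariate, against 591, and 403 to 861 without 1 tumor. Of the 9 genes, 0 were higher with the 1 FPKM filter, which Gzmk, Ifng, Fasl and Tbx21 do not pass, 0 with the T cell covariate, and 2 to 5 without 1 tumor, 5 being without swimming 1, against 2.

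With the T cell covariate the fold changes of Gzma, Gzmb, Nkg7, Fasl, Tbx21 and Ctsw were -0.21, -0.29, -0.022, -0.11, -0.047 and -0.10, and with the pan-leukocyte covariate those of Gzma and Gzmb were -0.20 and -0.24. Without 1 tumor they ran from -0.026 to 0.38 for Gzma (lowest without control 5), -0.11 to 0.37 for Gzmb (below 0 without control 5, swimming 3 or swimming 6) and -0.39 to 0.050 for Prf1 (above 0 without swimming 1), and the r of Prf1 with the T cell markers from -0.134 to 0.212. The cause of these moves was not tested. Neither the labels nor the methods state that equal replicate numbers in the 2 groups pair tumors. Correlations of the deviations of such tumors were -0.32 to 0.0059 and 0 of 6 were over 0.1. These values cannot show that no pairing existed, since a pairing may leave no mark on RNA. With the replicate number as a block, Gzmk had 0.28 and Ifng 0.55 as without it (adjusted p = 0.965 for both, in a range of 0.350 to 1.00 and 0.204 to 1.00 over the alternatives of each), and the block changed no call among the 9 genes, while T cell markers at an unadjusted p below 0.05 fell from 12 to 6 and other cytotoxic lymphocyte genes from 9 to 5. Without read totals, the counting error of genes below 1 FPKM (Ifng, Tbx21, Fasl and Gzmk) is unknown.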
